A study of Mus musculus with 12 samples.

Results

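Smooth muscle genes were followed in lung and liver of mice fed diets with and without added selenium (Se). They were 8 genes of the smooth muscle contractile apparatus, namely Acta2, Actg2, Myh11, Tagln, Cnn1, Lmod1, Des and Synpo2, out of 13710 genes with a probe set of their own in the deposited table. A probe set is a group of short probes on the array that reports on 1 transcript, and each probe set annotated to 1 of these genes and to no other was taken, which gave 11 of 29409 probe sets. Male wild-type FVB/N mice had been put at weaning on a Se-deficient torula yeast diet with sodium selenite added at 0.1 ppm Se (0.1 Se) or at 0 ppm (0 Se), and kept on it for 6 weeks. The 12 Affymetrix mouse genome arrays formed the groups 0.1 Se lung, 0 Se lung, 0.1 Se liver and 0 Se liver, with 3 biological replicates in each, and total RNA of whole tissue had been labelled with biotin from its 3′ end. All mice were of 1 sex and strain, all ate the same base diet, and the labels do not tie a lung array to the liver array of the same animal.

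Smooth muscle cells surround the airways and blood vessels of the lung and shorten when myosin filaments pull on actin filaments. Their thin filaments are built from smooth muscle actins and dressed with binding proteins, and they are anchored in dense bodies that are linked by the intermediate filament protein desmin. Many genes of this apparatus are driven by serum response factor (SRF) with its partner myocardin, which act through a short promoter element named the CArG box. In liver, smooth muscle is found in the walls of the larger vessels, and hepatic stellate cells gain Acta2 when they are activated. In bulk tissue, fewer cells of a type and less RNA per cell cannot be told apart.

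Values are log2 of the MAS5 signal, each array scaled separately. The lowest listed value was 6.64, a signal of 100, and a blank cell, which may hide a probe set called absent or a weaker signal, sets no level. Each array listed 22197 to 22718 probe sets in lung and 17235 to 17923 in liver. The tissue labels held against defining markers. Sftpc, Sftpb, Ager and Scgb1a1 of lung epithelium were listed on all 6 lung arrays, with 3 of the 4 blank on all 6 liver arrays. Alb, Apoa1, Ttr and Cyp2e1 of hepatocytes were listed on all 6 liver arrays, with Apoa1 and Ttr blank on all 6 lung arrays. Alb was listed on 3 lung arrays and Cyp2e1 on all 6. Cyp2e1 had 7.38 to 9.77 in lung, against means of 15.86 in 0.1 Se liver and 15.75 in 0 Se liver. The lung arrays were uneven in markers of heart muscle, as described below. Diet was compared by limma, and a probe set was called at a Benjamini-Hochberg adjusted p under 0.05 over all probe sets tested. In lung, 20 of 21655 probe sets were called (0.0924%), 16 higher and 4 lower in 0.1 Se lung. With 3 arrays per diet, the smallest two-sided p that an exact permutation test can reach is 0.1.

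In lung, no smooth muscle gene was called between the diets. Of the 11 probe sets, 9 were tested, having 2 or more listed values per diet, from 7 of the 8 genes, and 0 of 9 were called by limma, beside 0.0924% of all probe sets. At an unadjusted p under 0.05 there were 2 of 9, Acta2 and Tagln, both lower in 0.1 Se lung, where 7.67% of all probe sets had such a p and 4.12% had one and were lower. The methods' t-test gave 1 of 9 at an unadjusted p under 0.05 (Tagln), beside 6.52% of all probe sets, and 0 after adjustment. Differences were below 0 for 8 of 9 probe sets, beside 52.1% of all those tested. With 1 main probe set per gene, the one of highest mean signal among those listed on most lung arrays, 7 of 7 genes were below 0 with a median of -0.29, against -0.00773 over all probe sets. These counts include values close to 0, namely Des at -0.01, Cnn1 at -0.03 and the Synpo2 probe set 1441206_at at -0.0028. When only 1 value per group was asked for, Lmod1 entered at 0.11. With the mean of each gene's probe sets, the median was -0.23.

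**Figure D1:**
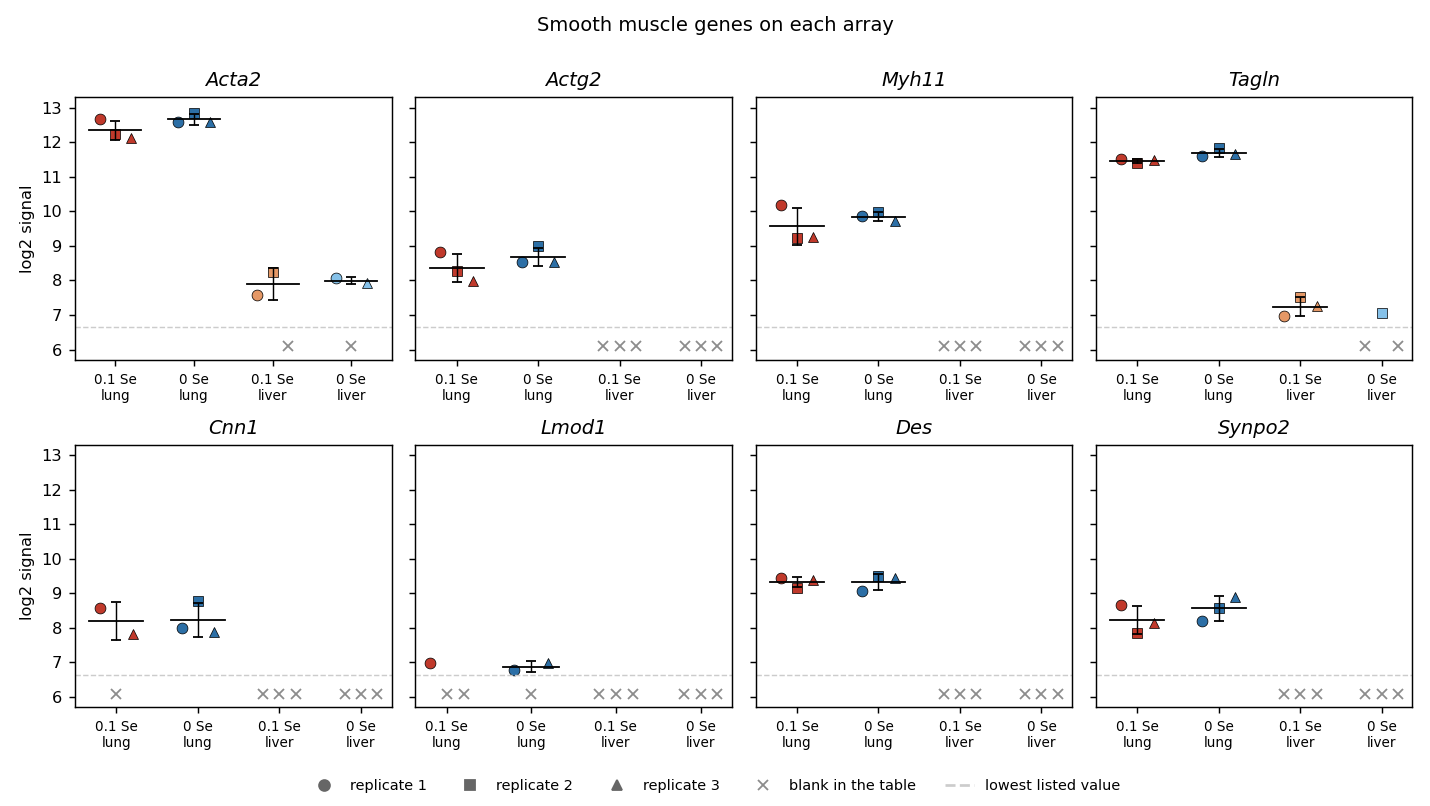
Log2 signal of the main probe set of each smooth muscle gene on each array (1 panel per gene, groups along the x axis, symbols for the replicates). Horizontal lines are group means and bars the SD where at least 2 values were listed, crosses mark blank cells and the dashed line is the lowest value of the table, 6.64. Lung values of Acta2 reach from 12.13 to 12.83 and its listed liver values from 7.58 to 8.23, and 6 genes have crosses on all 6 liver arrays.

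Acta2 encodes smooth muscle alpha-actin, the main actin of vascular smooth muscle (chromosome 19, 34240336 to 34255585, GRCm38.p6). Its probe set 1416454_s_at, of a kind that can also bind related transcripts, gave 12.66, 12.24 and 12.13 in 0.1 Se lung and 12.57, 12.83 and 12.57 in 0 Se lung. The diets overlapped through 1 array, 0.1 Se lung replicate 1, which lay above 2 of the 0 Se arrays while the other 0.1 Se arrays lay below all of them. Means were 12.34 ± 0.28 in 0.1 Se lung and 12.66 ± 0.15 in 0 Se lung (SD, n = 3 each). The log2 difference of -0.31 ± 0.14 (SE, 95% interval -0.61 to -0.01), or 1.24-fold lower in 0.1 Se lung, had a limma p of 0.0431 and an adjusted p of 0.636. By the methods' t-test the adjusted p was 0.81.

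The Acta2 promoter is shown because it held 2 elements close to the CArG box, the motif that many of these genes share. RefSeq promoters of build GRCm38.p6 (the C57BL/6J genome, not FVB/N), from 250 bases before to 50 after the annotated start, were matched by symbol for 5 of the 8 genes, Acta2, Cnn1, Lmod1, Des and Synpo2. Acta2's lies at chr19:34255324-34255623 on the minus strand, with CArG-like boxes in capitals. The annotated start and both boxes lie inside the gene span given above, so positions below are not distances from the span's outer end.
Acta2 promoter: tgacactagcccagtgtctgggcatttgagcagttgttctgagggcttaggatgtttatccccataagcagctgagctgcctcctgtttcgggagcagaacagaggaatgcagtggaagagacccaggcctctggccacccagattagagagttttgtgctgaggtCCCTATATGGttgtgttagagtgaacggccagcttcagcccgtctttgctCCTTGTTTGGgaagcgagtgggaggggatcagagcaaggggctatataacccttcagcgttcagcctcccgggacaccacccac
The boxes are CCCTATATGG, from -84 to -75, and CCTTGTTTGG, from -34 to -25 relative to the table's start. They depart from the CArG box (CC, then 6 bases of A or T, then GG, whose reverse complement has the same form) by 1 G or C among the 6 inner bases, a form added to the search after the promoters had been seen. Of 32851 promoters in the table, 9.98% held this looser form, against 1 of the members' 5 (a departure in the outer bases was not counted), and 1.63% held the strict form, against 0 of 5. The letters tatataa begin at base 8 after the table's start.

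Actg2 encodes smooth muscle gamma-actin, known best from gut and bladder muscle (chromosome 6, 83512909 to 83536251). Its probe set 1422340_a_at read 8.81, 8.27 and 7.99 in 0.1 Se lung and 8.54, 8.99 and 8.52 in 0 Se lung. Here too only 0.1 Se lung replicate 1 reached into the 0 Se values. The means of 8.36 ± 0.41 in 0.1 Se lung and 8.68 ± 0.26 in 0 Se lung differed by -0.33 ± 0.22 (SE, 95% interval -0.81 to 0.16, limma adjusted p = 0.798).

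Myh11 encodes the smooth muscle myosin heavy chain, the motor of the thick filament and the most restricted marker of the mature cell (chromosome 16, 14194527 to 14292188). Probe set 1448962_at had 10.18, 9.23 and 9.27 in 0.1 Se lung and 9.86, 9.97 and 9.71 in 0 Se lung. The highest of the 6 arrays was 0.1 Se lung replicate 1, while the other 0.1 Se arrays were the lowest, and the SD was 0.54 in 0.1 Se lung against 0.13 in 0 Se lung. Means of 9.56 in 0.1 Se lung and 9.85 in 0 Se lung gave a log2 difference of -0.29 ± 0.22 (SE, 95% interval -0.77 to 0.20, limma adjusted p = 0.828). A second Myh11 probe set, 1418122_at, was listed only on 0 Se lung replicate 3, at 7.04, and was not tested.

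Tagln encodes transgelin (SM22-alpha), an actin-binding protein that appears early as smooth muscle matures (chromosome 9, 45929628 to 45936058). Probe set 1423505_at showed 11.50, 11.39 and 11.48 in 0.1 Se lung and 11.59, 11.83 and 11.65 in 0 Se lung. It was the only one of the 8 probe sets listed on all 6 lung arrays whose diets did not overlap, each 0.1 Se array lying below each 0 Se array, and 12.9% of all such probe sets did not overlap, 6.86% of them all with 0.1 Se lower. Means were 11.45 ± 0.06 in 0.1 Se lung and 11.69 ± 0.13 in 0 Se lung (SD, n = 3 each). The difference of -0.23 ± 0.09 (SE, 95% interval -0.43 to -0.04), 1.18-fold lower in 0.1 Se lung, had a limma p of 0.0251 and an adjusted p of 0.557 (0.752 by the methods' t-test).

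Cnn1 encodes calponin 1, which binds actin and holds back the myosin ATPase (chromosome 9, 22099221 to 22109221). Its probe set 1417917_at was listed at 8.59 and 7.81 on replicates 1 and 3 of 0.1 Se lung, was blank on replicate 2, and had 8.01, 8.79 and 7.88 in 0 Se lung. The values of the diets were interleaved. Means were 8.20 ± 0.55 (n = 2) in 0.1 Se lung and 8.22 ± 0.49 (n = 3) in 0 Se lung, a difference of -0.03 ± 0.31 (SE, limma adjusted p = 0.993) whose 95% interval of -0.72 to 0.66 left changes of more than 1.5-fold either way within it. This value depended on the fit. It was -0.54 with blanks at the lowest value of the table (adjusted p = 0.835). With array weights, where the blank stayed missing, it was -0.41 (adjusted p = 0.647).

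Lmod1 encodes leiomodin 1, which starts the assembly of actin filaments in smooth muscle (chromosome 1, 135324813 to 135368065). Probe set 1427485_at stood near the foot of the table, at 6.99 on 0.1 Se lung replicate 1 and at 6.77 and 6.99 on 0 Se lung replicates 1 and 3. It was blank on the other 3 lung arrays. With a single value in 0.1 Se lung it was not tested.

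Des encodes desmin, the intermediate filament protein that smooth muscle shares with heart and skeletal muscle (chromosome 1, 75360292 to 75368579). On probe set 1426731_at the values were 9.44, 9.15 and 9.38 in 0.1 Se lung and 9.06, 9.49 and 9.45 in 0 Se lung. The lowest array was 0 Se lung replicate 1, so that the diets overlapped throughout. The means, 9.32 ± 0.16 in 0.1 Se lung and 9.33 ± 0.24 in 0 Se lung, differed by -0.01 ± 0.15 (SE, 95% interval -0.33 to 0.31, limma adjusted p = 0.994).

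Synpo2 encodes synaptopodin 2 (myopodin), an actin-bundling protein of dense bodies and Z-discs (chromosome 3, 123076519 to 123236168), and had 3 probe sets. The main one, 1435399_at, gave 8.67, 7.86 and 8.14 in 0.1 Se lung and 8.20, 8.59 and 8.90 in 0 Se lung. The lowest arrays were replicates 2 and 3 of 0.1 Se lung, with replicate 1 among the 0 Se values. Its difference was -0.34 ± 0.23 (SE, 95% interval -0.86 to 0.18, limma adjusted p = 0.809). The other Synpo2 probe sets did not share this value. On 1452879_at the arrays had 8.30, 7.99 and 7.79 in 0.1 Se lung and 7.88, 8.26 and 7.71 in 0 Se lung, a difference of 0.07 ± 0.20 (adjusted p = 0.958). On 1441206_at they had 8.08, 7.71 and 7.22 in 0.1 Se lung and 7.34, 8.03 and 7.64 in 0 Se lung, with a difference of 0.00 ± 0.24 (adjusted p = 0.999). On each of the 3, replicate 1 was the highest 0.1 Se array.

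**Figure D2:**
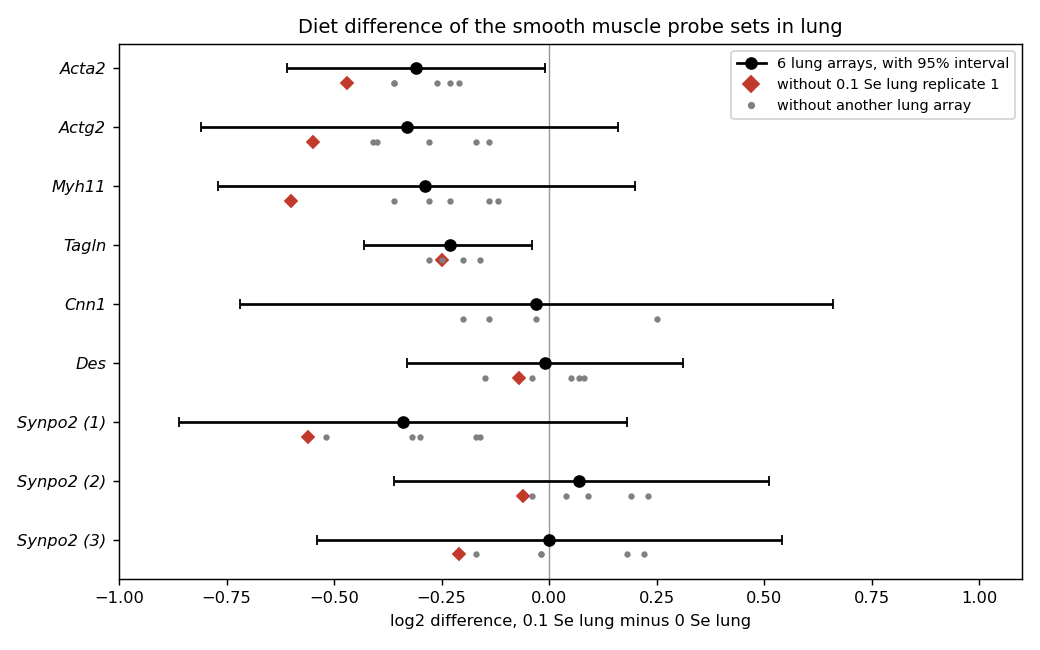
Log2 difference, 0.1 Se lung minus 0 Se lung, of the 9 smooth muscle probe sets tested (rows), with the 6 lung arrays (black points, bars are limma's 95% intervals), without 0.1 Se lung replicate 1 (red diamonds) and without each other lung array (grey dots). Synpo2 (1), (2) and (3) are 1435399_at, 1452879_at and 1441206_at, and Cnn1 could not be tested without 0.1 Se lung replicate 1. Intervals of Acta2 and Tagln end at -0.01 and -0.04, those of the other 7 include 0, and without 0.1 Se lung replicate 1 Myh11 lies at -0.60.

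The array that was left out set the size of these differences, though no choice brought a call. Without 0.1 Se lung replicate 1, 8 of 8 testable probe sets were below 0 (49.2% of all probe sets) and 5 of 8 had an unadjusted p under 0.05 (8.44% of all), while 0 of 8 were called (0.359% of all) and the lowest limma adjusted p was 0.103. Myh11 was then at -0.60 (adjusted p = 0.103), Acta2 at -0.47 (adjusted p = 0.136) and Actg2 at -0.55 (adjusted p = 0.420). The main Synpo2 probe set was at -0.56 and its others at -0.06 and -0.21, while Tagln, at -0.25, and Des, at -0.07, moved little. Leaving out 0 Se lung replicate 2, 0.1 Se lung replicate 2 or 0.1 Se lung replicate 3 brought the median over the members' main probe sets to -0.17, -0.16 and -0.17, against -0.29 with all arrays. Without 0 Se lung replicate 2, 5 of 9 probe sets were below 0 (52.3% of all), from -0.32 to 0.25, and 0 of 9 had an unadjusted p under 0.05 (6% of all). When 0.1 Se lung replicate 2 was left out, 7 of 9 were below 0 (53.1%), from -0.28 to 0.09, and again 0 of 9 had such a p (7.28%). Neither fit called any probe set in the whole table (0%).

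Without 0.1 Se lung replicate 3, 6 of 8 were below 0 (52.5% of all) and 1 of 8 had an unadjusted p under 0.05 (6.67%), with Acta2 at -0.21, Actg2 at -0.14 and Myh11 at -0.14. Without 0 Se lung replicate 1 these were 8 of 9 (51.3%) and 2 of 9 (7.44%), and without 0 Se lung replicate 3 they were 8 of 9 (52.5%) and 2 of 9 (7.28%). No member was called in these fits, beside 0.096%, 0.138% and 0.0189% of all probe sets.

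By gene, the main probe sets of Acta2, Actg2, Myh11, Tagln and Synpo2 stayed below 0 in each of the 6 fits that left out 1 lung array. Acta2 ranged from -0.47 to -0.21, Actg2 from -0.55 to -0.14 and Myh11 from -0.60 to -0.12. Tagln varied least, from -0.28 to -0.16, and the main Synpo2 probe set lay between -0.56 and -0.16. Des had either sign, from -0.15 to 0.08, as did Cnn1, from -0.20 to 0.25 in the 4 fits in which it could be tested. Over these fits the lowest adjusted p was 0.136 for Acta2, 0.103 for Myh11 and 0.496 for Tagln.

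Most members stood above or below their own mean on the same lung arrays, and likeness within a diet alone was not computed. Over the 6 members listed on all 6 lung arrays, the mean deviation from each gene's own lung mean was 0.21, -0.31 and -0.27 on the 0.1 Se arrays and -0.03, 0.28 and 0.13 on the 0 Se arrays. On 0.1 Se lung replicate 1, 5 of 6 genes were above their own mean, with Tagln the exception, whereas on replicates 2 and 3 of 0.1 Se lung 0 and 1 of 6 were. On 0 Se lung replicate 1, 4 of 6 were above their own mean, while Des (-0.27) and Synpo2 (-0.2) were below it. All 6 were above it on 0 Se lung replicate 2, which was the highest array for 4 of them, as it was for 13.4% of all probe sets listed on the 6 lung arrays. The array of the 0.1 Se diet that stood with the 0 Se arrays was thus the same for most members. Among all probe sets listed on the 6 lung arrays, 21.3% were above their mean on both 0.1 Se lung replicate 1 and 0 Se lung replicate 2, and 23.1% were below it on both 0.1 Se lung replicates 2 and 3.

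Between pairs of these 6 genes the Pearson correlation over the 6 lung arrays lay from 0.35 to 0.98 with a median of 0.69, and 15 of 15 pairs were above 0. The closest pair was Acta2 and Actg2 at 0.98, followed by Acta2 and Myh11 at 0.90. Des was lowest with Myh11, at 0.35, and with each actin, at 0.38, but reached 0.75 with Synpo2. These are descriptions over 6 arrays that share diet, tissue piece and scaling, and the actins may share some probe binding. The SD over the lung arrays was 0.39 for Myh11 and for the main Synpo2 probe set, and 4.71% and 4.53% of probe sets varied as much or more. For Actg2 it was 0.36 (6.27%) and for Acta2 0.26 (18.6%). Tagln, at 0.16 (55.3%), and Des, at 0.18 (44.9%), varied about as much as other probe sets did.

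**Figure D3:**
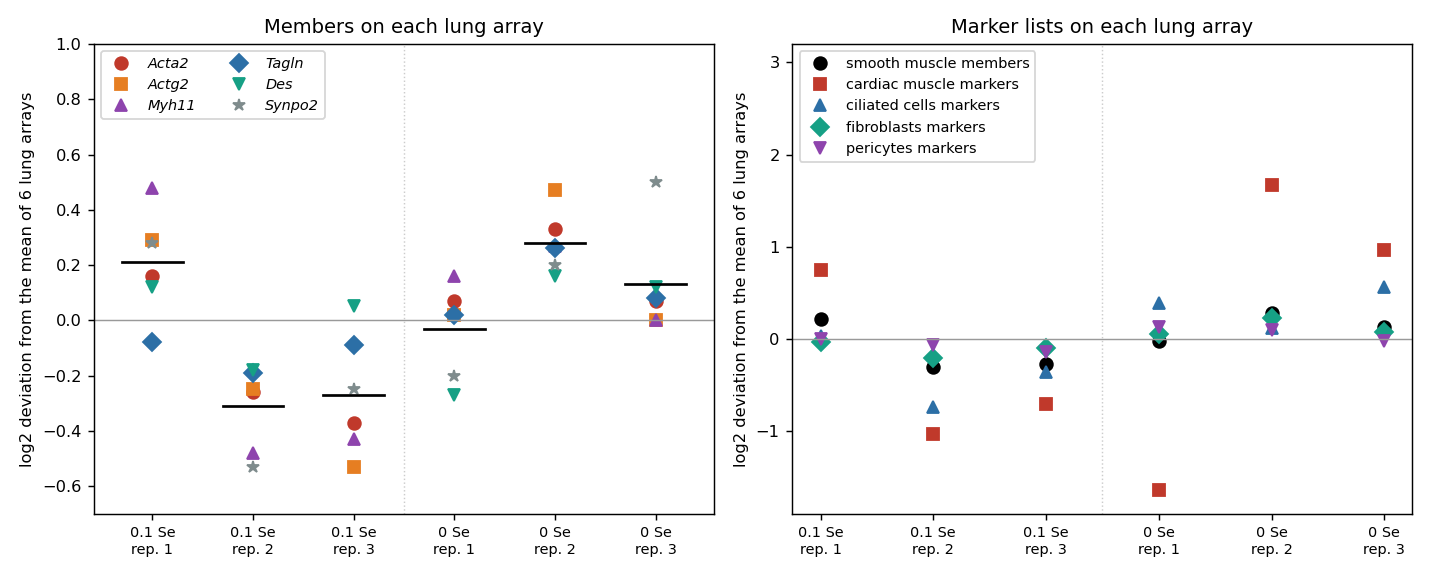
Log2 deviation from the mean of the 6 lung arrays on each array (x axis, 0.1 Se arrays left of 0 Se arrays). Left, each of 6 smooth muscle genes with the mean of the 6 as a line, at 0.21 on 0.1 Se lung replicate 1 and at -0.31 and -0.27 on the other 0.1 Se arrays. Right, the mean deviation of marker lists, where heart muscle markers span -1.64 to 1.67 and the smooth muscle members -0.31 to 0.28.

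Markers of other cells moved over the same arrays. Of 16 heart muscle markers, 10 were listed on all 6 lung arrays, 0 were blank on all of them, and their summed signal was 22900, 6290 and 8080 in 0.1 Se lung and 5010, 40900 and 25200 in 0 Se lung, against 12100, 9230 and 9150 for the 6 members in 0.1 Se lung and 11300, 13500 and 11700 in 0 Se lung. Nppa was listed on 1 lung array, Mybpc3 on 2, and Ryr2 and Actn2 on 3. Heart markers were thus high on 0.1 Se lung replicate 1 and on 0 Se lung replicates 2 and 3, and lowest on 0 Se lung replicate 1, where the members stood near their mean. The 12 heart markers tested were all below 0 (52.1% of all probe sets), with a median of -0.66, and -1.18 over the 10 testable without 0.1 Se lung replicate 1. Of them, 0 were called and 1 had an unadjusted p under 0.05, beside 7.67% of all probe sets. This was Myom2, an M-band protein (-1.07 ± 0.47, limma adjusted p = 0.650), listed on only 4 lung arrays. It had 8.17 and 6.82 on replicates 1 and 3 of 0.1 Se lung. On replicates 2 and 3 of 0 Se lung it had 9.13 and 8, so that the diets overlapped. Myom2 was blank on 0 Se lung replicate 1, the lowest array for heart markers. Of 9 skeletal muscle markers 6 were blank on all lung arrays. The part of heart muscle markers in the smooth muscle values was not tested.

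In the other marker lists 0 genes were called between the diets, beside 0.0924% of all probe sets, and the sign differed between lists. Of all probe sets tested, 52.1% were below 0, 7.67% had an unadjusted p under 0.05 and 4.12% had one and were lower. Markers of ciliated cells had a median of -0.79, with 8 of 8 below 0 and 7 at an unadjusted p under 0.05. Dnali1, a dynein light intermediate chain of cilia, was at -0.92 ± 0.21 (limma adjusted p = 0.218). Their summed signal over 7 genes was 5560 to 8510 in 0.1 Se lung and 8610 to 10200 in 0 Se lung, a narrow gap. By gene, the diets overlapped for Foxj1, Tekt1, Cfap126 and Tppp3 and not for Dnali1, Ccdc39 and Rsph1. Of all probe sets listed on the 6 lung arrays, 12.9% did not overlap. Fibroblast markers were below 0 for 9 of 9 genes with a median of -0.20. Their summed signal was 46700 to 48900 in 0.1 Se lung and 51600 to 56600 in 0 Se lung. These sums did not overlap, but by gene only Col3a1 and Fbln1 had diets without overlap. Lum, a collagen-binding proteoglycan, differed by -0.76 ± 0.27 (adjusted p = 0.526). Pericyte markers, of the mural cells of capillaries, had 7 of 9 below 0, a median of -0.14 and sums of 9620 to 10800 in 0.1 Se lung and 10500 to 12300 in 0 Se lung. The 5 mesothelium markers were all above 0, with a median of 0.22 and sums over 4 of them of 8270 to 14100 in 0.1 Se lung and 8370 to 11100 in 0 Se lung. Lung epithelium markers had a median of -0.19 (4 tested), and of the cartilage markers only Chad was tested (-1.10 ± 0.20, adjusted p = 0.111, n = 2 and 3). Without 0.1 Se lung replicate 1 the medians were -1.03 for ciliated cells, -0.16 for fibroblasts and -0.14 for pericytes. For mesothelium and lung epithelium they were 0.41 and 0.02. The part of these lists in the smooth muscle values was not tested.

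**Figure D4:**
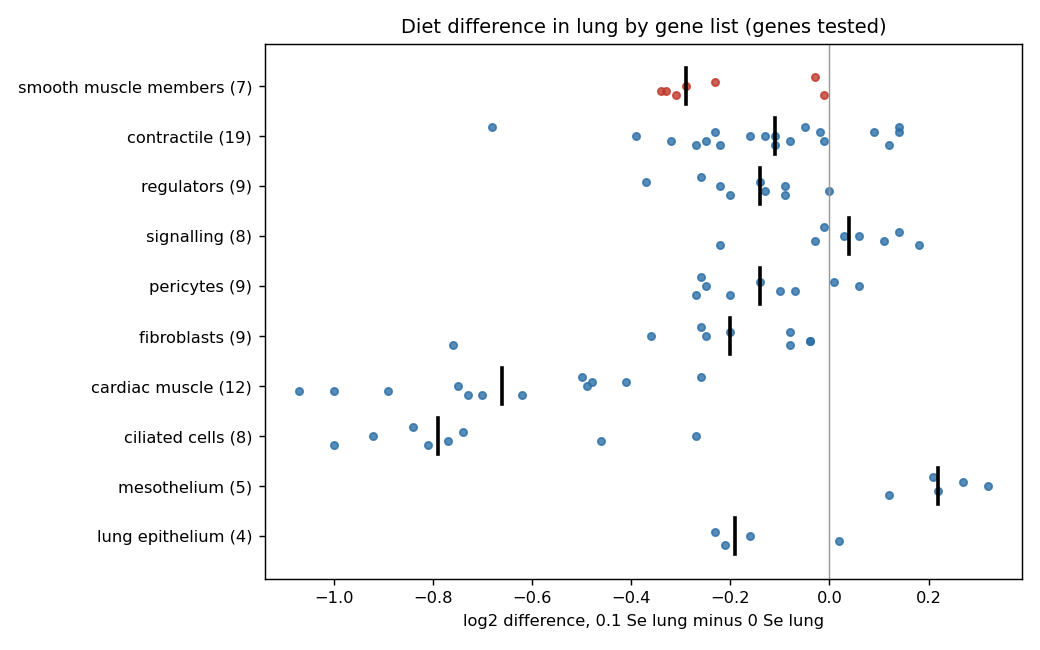
Log2 difference, 0.1 Se lung minus 0 Se lung, of each gene tested (1 point per gene) for the smooth muscle members (red) and other lists (blue), with the list median as a bar and the number of genes in brackets. Medians lie at -0.29 for the members, -0.11 for other contractile genes, -0.14 for regulators, 0.04 for receptors, channels and signalling, and -0.79 for ciliated cell markers, and no gene drawn was called.

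Of 20 further genes of the contractile apparatus 19 were tested, 15 were below 0 and 4 above, and 0 were called. Their median was -0.11, beside -0.29 for the members and -0.00773 for all probe sets. An unadjusted p under 0.05 was found for 3, all lower in 0.1 Se lung, where 4.12% of all probe sets had such a p and were lower. Of all probe sets, 52.1% were below 0. Ppp1r12b, a targeting subunit of myosin phosphatase, was at -0.39 ± 0.12 (limma adjusted p = 0.432) and Nexn, the actin-binding protein nexilin, at -0.32 ± 0.12 (adjusted p = 0.532). Hspb6, a small heat shock protein of relaxing muscle, was at -0.68 ± 0.28 (adjusted p = 0.594), and Myl9, the regulatory light chain of smooth muscle myosin, at -0.27 ± 0.13 (adjusted p = 0.687). Without 0.1 Se lung replicate 1, the median of the 19 was -0.1, beside -0.51 for the members. Then 12 of the 19 were below 0 and 7 above, where 49.2% of all probe sets were below 0. The fall of the members' median in that fit was thus not shared by these genes as a list.

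Of the regulators of the smooth muscle programme and their targets, 9 of 10 were tested, 8 were below 0 (52.1% of all probe sets), the median was -0.14 and 0 were called. Foxf1, a forkhead factor of lung mesenchyme, was at -0.26 ± 0.09 (limma adjusted p = 0.488) and the only one with an unadjusted p under 0.05 (7.67% of all probe sets). Srf, the factor that binds the CArG box, was at -0.20 ± 0.13 (adjusted p = 0.788), and Ccn2 and Ccn1, matricellular genes that SRF cofactors can drive, were at -0.22 and -0.37 (adjusted p = 0.721 and 0.762). Myocd, which encodes myocardin, was listed on 2 of the 6 lung arrays and not tested. Receptors, channels and signalling genes showed no common sign: of 8 tested, 3 were below 0 and 5 above, the median was 0.04, and 0 had an unadjusted p under 0.05. Among them was Pde5a, the cGMP phosphodiesterase, at -0.22 ± 0.14 (limma adjusted p = 0.782), and at -0.07 without 0.1 Se lung replicate 1. Agtr1a was at 0.18 ± 0.15, Gucy1b1 at 0.14 ± 0.14 and Rhoa at 0.11 ± 0.09 (limma adjusted p = 0.847, 0.869 and 0.835). Without 0.1 Se lung replicate 1 the medians were -0.21 for the regulators and 0.03 for the signalling genes.

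The 10 genes most like the members were sought among 1824 single-gene probe sets listed on all 6 lung arrays with an SD of at least 0.31, by Pearson correlation over the 6 arrays with the mean of the 6 main probe sets. They were Nr4a3 (0.976), Zfp800 (0.968), Mrvi1 (0.953), Lum (0.953), Actc1 (0.951), Gdf10 (0.951), St8sia6 (0.947), Got1 (0.945), Dnah5 (0.943) and Ldb3 (0.942). Nr4a3, an orphan nuclear receptor, had 8.59, 7.27 and 7.66 in 0.1 Se lung and 8.24, 8.98 and 8.71 in 0 Se lung, a difference of -0.80 (limma adjusted p = 0.557). Mrvi1, a target of cGMP-dependent protein kinase in smooth muscle, had 7.78, 7.01 and 7.17 in 0.1 Se lung and 7.65, 7.77 and 7.68 in 0 Se lung (adjusted p = 0.732). Actc1, the cardiac actin, had 12.24, 10.30 and 10.89 in 0.1 Se lung and 10.96, 12.95 and 12.18 in 0 Se lung (adjusted p = 0.761). In each of these 3 genes, replicates 2 and 3 of 0.1 Se lung were the lowest arrays, a likeness that the choice by correlation fixed. Actc1 stood on the list of heart markers and Lum on that of fibroblasts, and Ldb3 is a Z-disc protein of striated muscle.

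In liver, 6 of the 8 smooth muscle genes were blank on all 6 arrays, and 9 of the 11 probe sets. Actg2, Myh11, Cnn1, Lmod1, Des and Synpo2 had no listed value there, so that no fold between the tissues can be given for them. Of the members' 8 probe sets listed on all 6 lung arrays, 6 were blank on all 6 liver arrays (Actg2, Myh11, Des and the 3 of Synpo2), beside 16.4% of all 20062 probe sets listed on all 6 lung arrays. Acta2 and Tagln were each listed on 4 liver arrays.

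Acta2 had 7.58 and 8.23 on replicates 1 and 2 of 0.1 Se liver and 8.07 and 7.92 on replicates 1 and 3 of 0 Se liver. The diets overlapped, with a difference of -0.09 ± 0.27 in liver (SE, 95% interval -0.71 to 0.54, n = 2 each, limma adjusted p = 0.972), where 2 of 16575 probe sets were called (0.0121%). The diet difference in lung minus that in liver was -0.23 ± 0.27 (95% interval -0.81 to 0.36, adjusted p = 0.933), a test that called 0 of 15112 probe sets (0%, with 931 or 6.16% at an unadjusted p under 0.05). Between tissues the gap was far wider than the spread over arrays. Acta2 was 4.55 ± 0.13 log2 units higher in lung than in liver, or 23.4-fold (95% interval 19.1 to 28.7, limma adjusted p = 1.22e-12), where 81.6% of all probe sets were called, 47.7% of them all higher in lung, and 0.49% lay at least 4.5 units higher. The median over all probe sets was 0.18, or 0.45 with quantile normalization and -0.02 with median centring, and Acta2 ranged from 4.35 to 4.99 over the alternatives.

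Tagln had 6.96, 7.52 and 7.25 in 0.1 Se liver but only 7.06 on 1 array, replicate 2, of 0 Se liver. These values lay within 1 log2 unit of the foot of the table, and the single 0 Se value stood inside the range of 0.1 Se liver. With 1 value in 0 Se liver it did not enter the test. When only 1 value per group was asked for, the difference in liver was 0.18 ± 0.30 (SE, limma adjusted p = 0.942), the diet difference in lung minus that in liver was -0.42 ± 0.24 (adjusted p = 0.836), and Tagln was 4.42 ± 0.12 log2 units higher in lung than in liver, or 21.4-fold (adjusted p = 5.01e-13), with the lone array assumed to vary as the others did. Of the hepatic stellate cell markers on the array, 4 of 5 were listed on all 6 liver arrays and 0 were blank on all of them. All 5 were also listed on all 6 lung arrays, so these listings do not set liver apart.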

How the data were processed

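Total RNA of 12 lung and liver samples was measured on 1-colour Affymetrix mouse genome arrays. The authors computed MAS5 signals, scaled each array separately and excluded absent calls, and deposited the results on a log2 scale. The scaling target is not given in the sources used here. R 2.15.2 and the affy package 1.36.0 are named in the submitters' processing notes. Values were used as deposited, blanks stayed missing, and 58 control probe sets were left out. Of 29409 probe sets, 24504 stood for 1 gene in the platform annotation, 24434 of them matched to RefSeq through Entrez numbers.

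Diets were compared within a tissue by limma 3.58.1 (lmFit, eBayes with a trend) in R 4.3.3, for probe sets with at least 2 values in each diet, and tissues and the interaction in 1 fit of 12 arrays. Benjamini-Hochberg adjustment ran over all probe sets tested. The methods' t-test was an alternative. Scripts were tested on simulated data. Values are log2, differences are 0.1 Se minus 0 Se or lung minus liver, and the number of arrays limits their precision.

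The members and lists were chosen with earlier results of these data known. All members were named, and of each other list up to 4 genes with the smallest p in lung. Arrays were not paired by replicate number in the main fits.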

Additional observations from a re-analysis of the deposited data

How the results depend on the processing

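No smooth muscle gene was called in lung under any alternative tried. Acta2 kept its sign in lung under 19 alternatives (-0.47 to -0.21, limma adjusted p 0.136 to 0.931), Actg2 under 18 (-0.57 to -0.14), Myh11 under 20 (-0.60 to -0.12), Tagln under 19 (-0.28 to -0.16) and the main Synpo2 probe set under 18 (-0.56 to -0.16), while the mean of the Synpo2 probe sets was -0.09. Cnn1 ranged from -0.54 with blanks at the lowest value to 0.25 over 14 alternatives. With 1 lung array left out, it ranged from -0.20 to 0.25 and Des from -0.15 to 0.08. Cnn1 changed sign without 0 Se lung replicate 2 (0.25), and Des did so without 0 Se lung replicate 2 (0.07), without 0 Se lung replicate 3 (0.05) and without 0.1 Se lung replicate 2 (0.08). The median over the members lay between -0.51 and -0.16 when 1 array was left out. The causes were not tested. Blanks, signals near 100 and 3 arrays a group limit what could be seen, above all for Lmod1, Cnn1 and the members in liver.

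Over all probe sets, the count called in lung was 20. It became 4 with blanks at the lowest value, 9 with the mean signal above the median, 10 with quantile normalization, 0 without a trend (1661 at an unadjusted p under 0.05 with the trend), 13 with a robust trend, 54 with array weights and 0 by the methods' t-test (1412 at an unadjusted p under 0.05), and 0 to 75 when 1 array was left out, with 75 without 0.1 Se lung replicate 1, 4 without 0 Se lung replicate 3, and 0 when the array left out was replicate 2 of either diet. In liver it was 2, and became 1 with 3 values in each group, 8 with blanks at the lowest value, 0 without a trend, 13 with 12 arrays in 1 fit, 0 by the methods' t-test and 0 to 9 when 1 array was left out. The interaction had 0 calls, 44 with blanks at the lowest value and 0 to 3 when 1 array was left out. Lung against liver had 12326, 19731 with blanks at the lowest value and 11550 to 12065 when 1 array was left out.

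Lung arrays of the same number deviated from their group means with correlations of 0.147, -0.166 and -0.021. With 3 arrays a group, such values cannot show whether replicate numbers pair the arrays, and the main fits left them unpaired. In a fit with a replicate block, limited to probe sets without blanks, 37 probe sets were called in lung, 0 in liver and 2 in the interaction, with no smooth muscle gene among those called in lung.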
